A study of Mus musculus with 2 samples.

Results

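Mir204 and Mir211 are the microRNA genes that lie inside the cation channel genes Trpm3 and Trpm1. They were taken by their GENCODE M21 gene names from the count tables, and both were found, as 2 of 2202 microRNA genes. The tables come from short RNA libraries of 2 female mice, aged 36 days, whose left cerebral cortex was taken. Both are of the hybrid strain B6CASTF1/J and are labelled as biological replicates 1 and 2 of a single group under 1 donor code, with no treatment given. The labels number the animals separately, and from this the libraries were taken as 2 mice, which is a reading of the labels. The design holds no comparison between conditions, so the levels below describe the tissue and the spread between the 2 mice (n = 2), each read in 1 library.

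A microRNA is cut from a hairpin in a longer transcript, and 1 of its arms is loaded onto an Argonaute protein, where bases 2 to 8 of the arm, the seed, choose the messenger RNAs that are repressed. miR-204 and miR-211 form a single seed family. miR-204 is known from the choroid plexus, the retinal pigment epithelium and other epithelia, and miR-211 from pigment cells, where Trpm1 is also active. Trpm3 encodes an ion channel that responds to heat and to neurosteroids, and Trpm1 one that carries the light response of retinal bipolar cells.

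The mature arms are shown because they decide whether reads of the 2 genes can be told apart. They are RefSeq sequences on the GRCm38.p6 build, 5′ to 3′, with the seed in capitals. The first pair holds the 5p arms, from the plus strand of chr19:22750610-22750631 and of chr7:64205831-64205852.
miR-204-5p: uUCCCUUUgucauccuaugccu
miR-211-5p: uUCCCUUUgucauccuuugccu
The 3p arms come from the plus strand of chr19:22750649-22750669 and of chr7:64205868-64205888.
miR-204-3p: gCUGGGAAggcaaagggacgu
miR-211-3p: gCAAGGACagcaaaggggggc
The 5p arms are each 22 bases long, are identical at 21 positions and share the seed. The single difference is A17U (miR-204-5p has A at position 17 and miR-211-5p has U, counted from 1 at the 5′ end). The first 16 bases are therefore the same in both. The 3p arms, 21 bases each, are identical at 14 positions when set side by side without gaps, and their seeds differ. Of the 1738 mature arms in the RefSeq table, 1 other has the 5p seed, miR-7670-3p, and 1 other has the seed of miR-204-3p, miR-7684-5p. The genes of both, Mir7670 and Mir7684, had 0 counts in each mouse.

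The whole hairpins are shown with both mature arms in capitals. They match the GENCODE M21 transcripts of the 2 genes letter for letter.
Mir204: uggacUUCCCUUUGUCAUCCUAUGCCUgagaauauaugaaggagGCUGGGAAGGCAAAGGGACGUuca
Mir211: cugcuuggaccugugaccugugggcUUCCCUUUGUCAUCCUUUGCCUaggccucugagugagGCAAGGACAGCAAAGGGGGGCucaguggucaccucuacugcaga
The longest run of bases common to both hairpins is 17 bases, and it lies over the start of the 5p arm. Against the other 1004 hairpins in the table, no run of 16 or more bases was shared by Mir204 with any hairpin but Mir211, or the reverse, and the second longest run was 12 bases for each. The rest of the genome was not searched, so matches outside annotated hairpins are unknown. A read that covers position 17 of the 5p arm thus differs between the genes, whereas a shorter read from the start of that arm would fit both and, where it is given to several places, enter neither count. The read lengths are not in the tables, so the number of such reads is unknown. A miR-204-5p read with U in error at position 17 would equal miR-211-5p. The part of such errors in the few Mir211 counts was not tested. The Mir204 hairpin is 68 bases long with 48.5% G and C, and the Mir211 hairpin is 106 bases long with 57.5%. The median over the 1005 hairpins is 79 bases and 51.7%. The computed folding energy was −33.7 kcal/mol for Mir204 and −57.6 kcal/mol for Mir211. Per 100 bases that is −49.6 and −54.3 kcal/mol, each a more stable fold than the median of −40.6.

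Both hairpins lie on the strand of their host, and in no annotated transcript of either host does an exon overlap them. Mir204 (ENSMUSG00000065507.3, mm10 chromosome 19, 22750605 to 22750672, plus strand) begins 612 kb into the 856 kb Trpm3 gene. Mir211 (ENSMUSG00000065585.1, chromosome 7, 64205806 to 64205911, plus strand) begins 52.0 kb into the 116 kb Trpm1 gene. The host transcripts with the most exons that span each hairpin, Trpm3-201 and Trpm1-201, both have 27 exons, and in both the hairpin stands in intron 6, with 21 exons after it. That intron is 33.5 kb long in Trpm3 and 3.68 kb long in Trpm1. For Trpm1, 3 spanning transcripts tie at 27 exons, and Trpm1-201 was taken as the first by name. The intron number differs between transcripts. Of 18 Trpm3 transcripts that span Mir204, 14 hold it in intron 6 (range 6 to 7), and of 12 Trpm1 transcripts that span Mir211, 8 do (range 1 to 6). Neither hairpin has a gene on the opposite strand over it, and neither is clustered. The nearest other microRNA gene of the table is 399 kb from Mir204 (Mir1192) and 44.1 kb from Mir211 (Mir6416). The Trp channel family was searched by symbols that start with Trpa, Trpc, Trpm, Trpv, Mcoln or Pkd2, which may also take in genes that encode no channel. Of the 30 protein-coding genes found, only Trpm3 and Trpm1 held a microRNA gene of the table on their own strand.

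**Figure D1:**
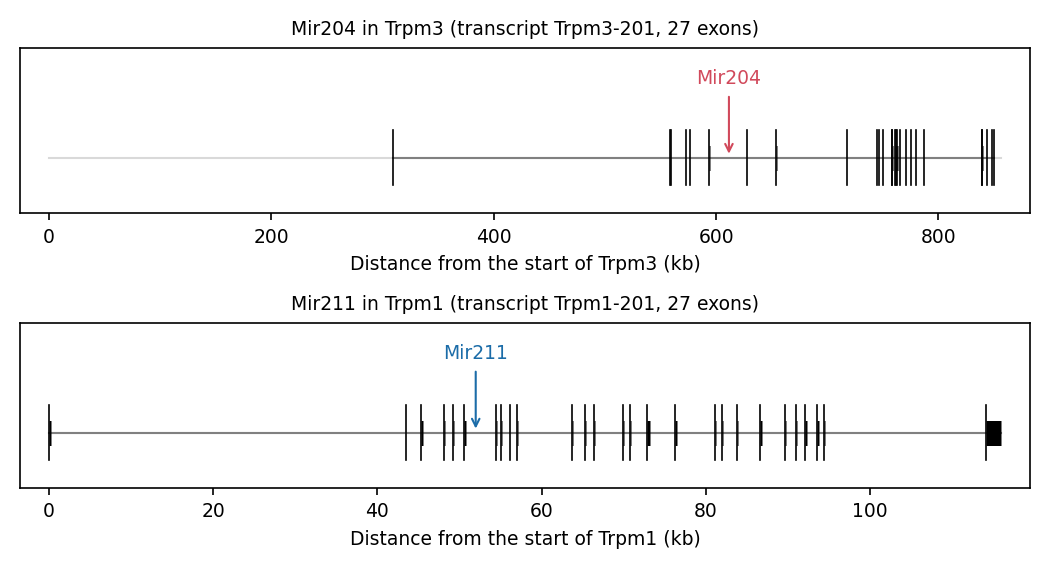
Position of the hairpins in the host genes, as distance in kb from the start of each gene on 2 separate scales. Vertical bars are the exons of Trpm3-201 and Trpm1-201, and the arrows mark Mir204 and Mir211, both in intron 6.

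Mir204 was read at a moderate level that was nearly the same in both mice. Mouse 1 had 943 counts on the gene's strand (sense counts) and mouse 2 had 923. As CPM, the counts scaled to a common library size by the library's sense total, that was 488.5 CPM in mouse 1 (95% exact Clopper-Pearson interval 457.9 to 520.7) and 495.2 CPM in mouse 2 (463.8 to 528.2), so the 2 intervals overlap. The mean was 491.9 ± 4.71 CPM (SD, n = 2), or 0.0489% and 0.0495% of all sense counts. These intervals cover the counting error of reads only and hold no term for animals or libraries. No molecular identifiers are named and PCR copies count as reads, so the intervals may be too narrow even for counting molecules. By mean CPM, Mir204 ranked 134 of 2202 genes, and it ranked 133 in mouse 1 and 130 in mouse 2. Detection was set at 10 CPM in each of the 2 mice, and 13.8% of all genes in the table reached it, 304 in number. Mir204 was detected and stood above 170 of those 304 genes, whose median was 326 CPM. All its counts lay on the gene's strand, with 0 on the opposite strand in each mouse.

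Mir211 stayed close to the floor in both mice. Mouse 1 had 8 sense counts of it and mouse 2 had 1, with 0 on the opposite strand. Its level was 4.14 CPM in mouse 1 (95% exact interval 1.79 to 8.17) and 0.537 CPM in mouse 2 (0.0136 to 2.99), with a mean of 2.34 ± 2.55 CPM (SD, n = 2). These intervals overlap, which is not a test of the difference, and the direct comparison is given below. An observed 0 allows as many as 3 counts, a level of 1.55 CPM for mouse 1 and of 1.61 for mouse 2, so the level in mouse 2 lay below what a count of 0 allows. Mir211 was not detected at 10 CPM. It ranked 435 of 2202 by mean CPM, and 722 genes had a count in either mouse. The other 1480 had none.

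**Figure D2:**
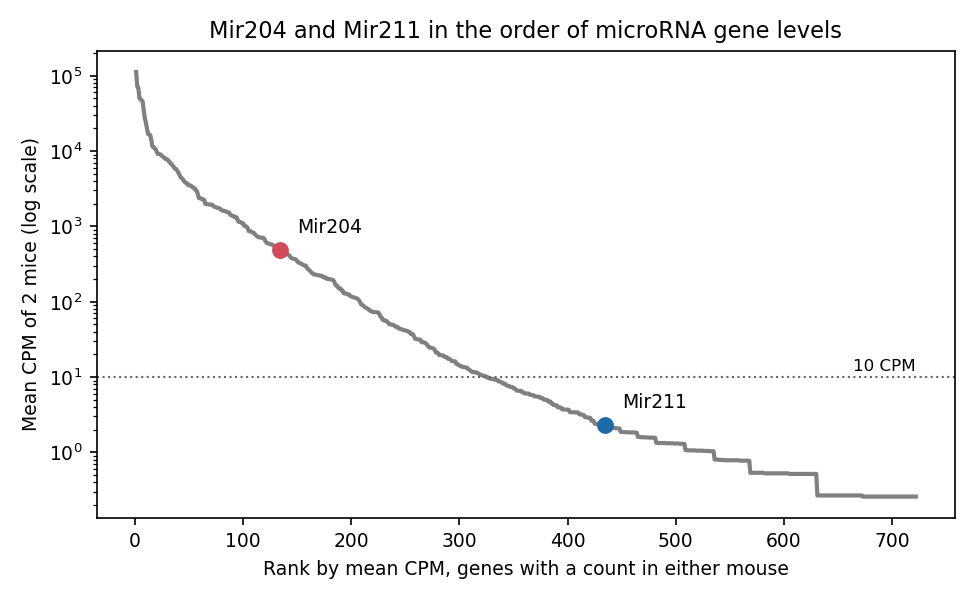
Mean CPM of 2 mice (log scale) against rank for the 722 microRNA genes with a count in either mouse. Mir204 lies at rank 134 and 491.9 CPM, above the dotted line of 10 CPM, and Mir211 at rank 435 and 2.34 CPM, below it.

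Nearly all counts of the pair were therefore Mir204. Of the 951 counts of both genes in mouse 1, 99.2% were Mir204 (95% exact interval 98.3% to 99.6%), and of the 924 in mouse 2, 99.9% (99.4% to 99.997%). The mean share was 99.5% ± 0.518 (SD, n = 2). As a ratio, Mir204 had 118 counts per count of Mir211 in mouse 1 (95% interval 59.6 to 274) and 923 in mouse 2 (165 to 36496). The upper bound in mouse 2 is wide because it rests on 1 count of Mir211. Scaled by the annotated hairpin length, Mir204 stood at 718 CPM per 100 bases in mouse 1 and 728 in mouse 2. On the same scale Mir211 stood at 3.91 in mouse 1 and 0.506 in mouse 2. This scale widens the gap only because the annotated Mir211 hairpin is longer. The mature arms of the 2 genes are equal in length, so the per-base gap is not a result about the microRNAs. Each count covers the whole hairpin, so the shares of the 5p arm, which carries the common seed, and of the 3p arm are unknown.

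Between the 2 mice, Mir204 was among the genes with the least difference. The log2 ratio of mouse 2 over mouse 1, with library sizes scaled by TMM (a trimmed mean of M-values, which balances library composition), was −0.03 (95% exact interval −0.16 to 0.10). Its sign turned with total counts (0.0195) and with unstranded counts (0.0135), so no direction is given. A two-sided exact binomial test of the 2 libraries, adjusted by Benjamini-Hochberg over the 324 genes whose mean reached 10 CPM, gave an adjusted p of 0.729. The interval bounds a difference between 0.894-fold and 1.07-fold for counting error. In 12 of the 324 genes, Mir204 included, the absolute log2 ratio was no larger than that of Mir204 itself. The median absolute difference over the 324 was 0.53 on the log2 scale, or 1.44-fold, and edgeR put the common biological coefficient of variation at 0.399. By the exact test with at least 2-fold, 19.4% of the 324 genes were called apart, and Mir204 was not among them. This test compares 2 libraries and cannot tell animals from library preparations.

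Mir211 was lower in mouse 2 by its counts alone, without passing an adjusted test. Its ratio was 7.99-fold higher in mouse 1, with a 95% counting interval of 1.07 to 354. The unadjusted exact binomial p was 0.0391. Mir211 was below the mean level set for testing. With that filter removed, the exact binomial p adjusted over the 722 genes with a count was 0.110.

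**Figure D3:**
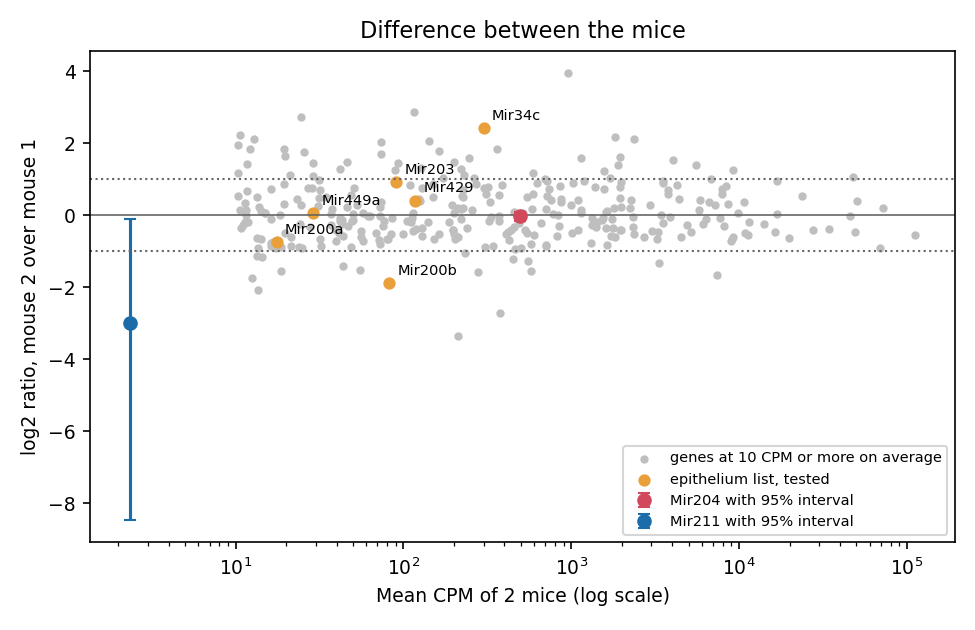
Log2 ratio of mouse 2 over mouse 1 against mean CPM (log scale) for the 324 tested genes, with the tested genes of the epithelium list in orange and 2-fold as dotted lines. Mir204 sits at −0.03 with an interval narrower than its symbol, and Mir211 at −2.998 with a 95% counting interval from −8.47 to −0.10.

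The 5 genes nearest to Mir204 in log2(CPM + 1) of both mice were Mir351, Mir490, Mir1843a, Mir28a and Mir666, at distances from 0.12 to 0.30. This likeness is over 2 libraries of 1 tissue and is a likeness of level only. In mouse 1 and mouse 2, in that order, Mir351 stood at 499 and 536 CPM. Mir490 stood at 519 and 462 CPM, Mir1843a at 431.6 and 479 CPM, Mir28a at 498.4 and 415 CPM, and Mir666 at 597 and 467 CPM. In mean CPM, the gaps from Mir204 to Mir351 (517 ± 26.2 CPM) and to Mir490 (490.5 ± 40.4 CPM) were smaller than the SD of either neighbour between the mice, so their order is not resolved. No nearest genes were listed for Mir211, which was not above 3 counts in both mice.

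Because miR-204 is known from the choroid plexus and other epithelia, 12 other microRNA genes known from such cells were read beside it. They include the Mir34b and Mir34c pair and the Mir449 genes, known from ciliated epithelium, then the 5 genes of the Mir200 family, known to keep cells epithelial, and Mir203 and Mir205, known from skin. Of the 12, 6 were detected at 10 CPM in both mice, beside 13.8% of all genes in the table. None of the 12 had a mean above that of Mir204. In mouse 1 Mir34c stood at 92.2 CPM, and in mouse 2 at 509.7 CPM, beside 495.2 CPM of Mir204. Mir429, of the Mir200 family, stood at 99.0 and 135 CPM, and Mir203 at 61.1 and 120.2 CPM. All 3 had their higher value in mouse 2. Mir200b went the other way, with 129.0 CPM in mouse 1 against 35.9 in mouse 2. Mir449a stood at 28.0 and 30.0 CPM, and Mir200a at 21.8 and 13.4 CPM. Mir34b, Mir205 and Mir200c lay between 5.70 and 12.3 CPM, Mir141 had 0 and 2 counts, Mir449c 0 and 1, and Mir449b 0 in both mice.

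Summed over the 12, the level was 451 CPM in mouse 1 against 880 in mouse 2. Mir34c carried nearly all of that gap, and the other 11 genes summed to 359 and 371 CPM. Of the 6 tested, 1 was called higher in mouse 2, against 14.2% of all tested genes, and 1 higher in mouse 1, against 5.25%. These were Mir34c, 5.35-fold higher in mouse 2 (adjusted p = 2.74e-127, exact binomial test of 2 libraries), and Mir200b, 3.71-fold higher in mouse 1 (adjusted p = 2.83e-25, same exact test). The median log2 ratio of the 6 was 0.23, beside −0.00376 over all 324. Between the same libraries the level of Mir204 differed by 1.02-fold with TMM scaling. Whether any choroid plexus or meningeal tissue was taken with the cortex is not given in the labels, and its part in the level of Mir204 was not tested. In bulk tissue, fewer cells of a type and less RNA per cell cannot be told apart.

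For the eye, where both miR-204 and miR-211 are well known, 4 genes were read. Mir184, known from cornea and lens, stood at 190.1 and 137.3 CPM in mouse 1 and mouse 2. Mir183 and Mir182, which with Mir96 form a cluster known from photoreceptors and hair cells, stood at 11.4 and 11.8 CPM and at 11.9 and 10.2 CPM, and Mir96 had 0 counts in both mice. Of the 3 tested genes 0 were called apart by the exact test and 2-fold, beside 19.4% of all tested genes. Mir184 passed the exact binomial test alone (adjusted p = 1.86e-05) at 1.43-fold, under the 2-fold limit. The list summed to 213 and 159 CPM, below Mir204 alone.

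**Figure D4:**
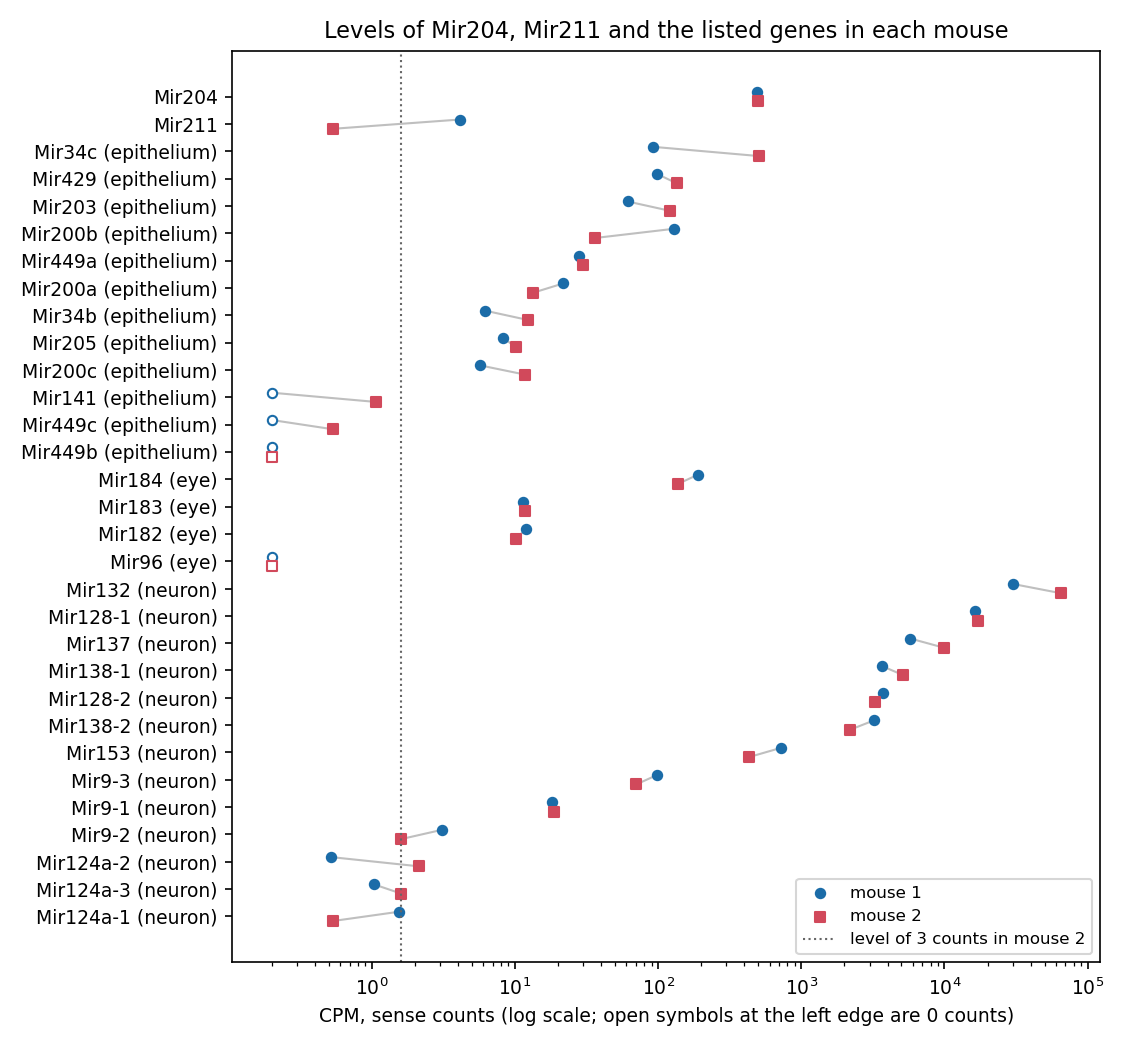
CPM of Mir204, Mir211 and the listed epithelium, eye and neuron genes (log scale) in mouse 1 (circles) and mouse 2 (squares), with open symbols for 0 counts and a dotted line at the level of 3 counts in mouse 2. Mir204 lies at 488.5 and 495.2 CPM, to the right of the epithelium and eye genes except Mir34c in mouse 2, and Mir211 lies at 4.14 and 0.537 CPM.

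The tissue label was read against 13 neuronal microRNA genes, which summed to 63342 and 103154 CPM. Most of that gap was Mir132, known to be induced by neuronal activity, and the other 12 summed to 33448 and 38295 CPM. Of the 9 tested, 1 was called apart, Mir132 (2.10-fold higher in mouse 2), beside 14.2% of all tested genes called higher in mouse 2, and the median log2 ratio of the 9 was 0.00235. Of the 13, 9 were detected, beside 13.8% of all genes in the table. In mean CPM, 7 of the 13 stood above Mir204, led by Mir132 and Mir128-1, beside 133 of all 2202 genes. The 3 copies of Mir124a, the best known neuronal microRNA, had between 1 and 4 counts each, and Mir9-2 had 6 and 3. Another copy, Mir9-3, had 189 and 131 counts, and the paired copies Mir128-1 and Mir128-2 had 31429 and 7174 in mouse 1. Reads given to several places, 50.9% of mapped reads in mouse 1 and 51.2% in mouse 2, entered no gene count, and their part in the low counts was not tested. The libraries held 1930234 and 1863876 sense counts.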

How the data were processed

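Short RNA libraries of 2 mice were read from the deposited tables of whole-number read counts per gene, which per the submitters' notes rest on mm10 and GENCODE M21. The tables name no columns. From their values, the 3 count columns were taken as unstranded, sense and opposite strand. For the aligner, the counter and adapter trimming, nothing is given in the sources used here. The 4 opening lines that name no gene were left out of library sizes: 32.1%, 34.6% and 6.11% of reads in mouse 1 were unmapped, at several places or in no gene, and 27.3%, 37.2% and 5.63% in mouse 2.

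CPM was computed over the sense totals. TMM factors and the common coefficient of variation came from edgeR 4.0.16 and size factors from DESeq2 1.42.0. Exact binomial tests and Clopper-Pearson intervals used SciPy 1.17.1, with calls at an adjusted p under 0.05 and at least 2-fold. They were also run on simulated data that held counting error alone, which is what the test assumes. That run cannot show how the calls behave under variation between mice or libraries. Folding used ViennaRNA 2.7.2. Strand, scaling, denominator, filter, detection level and each mouse were varied.

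Named were both members, the 5 nearest genes by Euclidean distance, microRNA genes in Trp channel genes, 3 marker lists and genes that share a seed. Mir1192 and Mir6416 were named after their values were seen. Members and lists were chosen with earlier results of these data known. The p-values measure only the spread of reads between 2 libraries. CAST alleles may lose reads against mm10, which these tables cannot test.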

Additional observations from a re-analysis of the deposited data

How the results depend on the processing

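Of 29 values under other settings, 25 kept their direction and their side of the threshold or stayed within the spread between the mice. Leaving out 1 mouse of 2 moves a mean by less than the SD by construction, so those levels and shares could not fail. The log2 ratios could not change when the filter was removed, although an adjusted p could. The share of Mir204 could not change with unstranded counts, because these equalled the sense counts for both genes. The CPM of Mir211 fell to 0.645 when scaled to all reads, which counted as unchanged because its SD was 2.55. The CPM of Mir204 moved to 531.5 with unstranded counts, whose library totals are smaller, and to 140.4 when scaled to all reads, unmapped ones included. The log2 ratio of Mir204, −0.03 with TMM, turned to 0.0195 with total counts and to 0.0135 with unstranded counts, and passed the exact test under neither (adjusted p = 0.822 and 0.885; range over the alternatives 0.715 to 0.911), so its sign is not resolved. Without mouse 1 or mouse 2, the CPM of Mir204 was 495.2 or 488.5 and that of Mir211 0.537 or 4.14, so the level of Mir211 rests on mouse 1. Of the pair, 1 gene was detected at 100 CPM in both mice, as were 197 of all 2202 genes. The pair also had 1 gene detected at 5 and at 20 CPM, where the share of all genes is not given. A log2 ratio needs both mice, so leaving out a mouse gives none. No paired analysis was possible because the labels give a single group.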
